A study of Mus musculus with 5 samples.

Results

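The 9 genes described here fall into 2 sets. Cybb, Cyba, Ncf1 and Ncf4 encode subunits of the phagocyte NADPH oxidase, and Hmox1, Nqo1, Gclm, Txnrd1 and Srxn1 are antioxidant genes widely used as targets of the transcription factor NRF2. They were chosen by symbol and joined to the Ensembl identifiers of the count files. All 9 were found among the 46983 genes listed, and all 9 were among the 14580 genes that passed the filter on low counts.

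The phagocyte NADPH oxidase moves electrons from NADPH across a membrane to oxygen and so makes superoxide, which phagocytes use against microbes and in signalling. Its membrane core, a catalytic and a stabilising subunit, becomes active when cytosolic subunits and a Rac GTPase join it. NRF2, encoded by Nfe2l2, is held low by KEAP1. When oxidants or electrophiles block KEAP1, NRF2 pairs with small MAF proteins on antioxidant response elements and drives genes of glutathione, thioredoxin, quinone and heme metabolism, while BACH1 represses some of the same elements.

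RNA sequencing gave 5 libraries, labelled as macrophages sorted as CD45+ CD11b+ Ly6G- F4/80+ cells from orthotopic tumours of EO771, a mammary carcinoma line of mice, with the strain given as C57/BL6. The Treg-ablated group (2 libraries) had been given diphtheria toxin in 2 doses of 50 µg per kg to deplete regulatory T (Treg) cells, with the sort on day 4. The control group (3 libraries) received no toxin, and its libraries carry the mark WT in their deposited names, which those of the Treg-ablated group do not. Toxin, Treg loss and any difference in host genotype therefore cannot be told apart. The allele that made Treg cells sensitive to the toxin, the full host genotype of each group, the age of the mice and whether libraries came from separate animals are not given in the sources used here, and p-values here reflect the spread among these libraries, part or all of which may be technical.

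Library totals ran from 13122668 to 20156835 counts. Values are CPM, counts per 1000000 of the scaled library size. Means are given ± SD, over n = 2 (Treg-ablated) and n = 3 (control). The libraries hold much RNA that macrophages do not make: the summed level of 18 fibroblast markers was 20800 to 23140 CPM after ablation and 22370 to 26280 CPM in controls, against 311.2 to 376.5 and 575.4 to 593.3 CPM for 20 mature macrophage markers. For the antioxidant genes, which most cells express, the values below therefore cannot be assigned to macrophages. Of the macrophage markers 13 of 20 were lower after ablation and 0 higher. Of the fibroblast markers 10 of 18 were lower and 1 higher, and of 5 tested epithelial markers 0 passed. By contrast, 15 of 18 T and NK cell markers and 5 of 7 tested B cell markers were higher. Over all genes tested 12.3% were lower and 13.5% higher. In bulk RNA, fewer cells of a type and less RNA per cell cannot be told apart.

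Treg ablation was followed by small changes in these genes that did not follow the 2 sets. Among the oxidase subunit genes, Cybb fell by 28.68% in the fitted fold change and the other 3 did not pass the test. Among the antioxidant genes, Gclm rose by 36.68%, Nqo1 fell by 24.49% and Srxn1 fell by 17.96%, while Hmox1 and Txnrd1 did not pass. Thus 1 of 4 oxidase and 3 of 5 antioxidant genes passed at an adjusted p under 0.05 (edgeR quasi-likelihood test, Benjamini-Hochberg adjustment over all genes tested). Of all genes tested 25.8% passed, 13.5% as higher and 12.3% as lower, and whether the members differ from that background was not tested. The median log2 fold change was −0.26 over the 4 oxidase genes and 0.11 over the 5 antioxidant genes, beside −0.0062 over all genes tested. Without Treg-ablated replicate 1 or control replicate 2, 1 antioxidant gene passed, and without control replicate 2 none of the oxidase genes did. Tested against a fold of 1.5 with edgeR, 0 of the 9 passed, and 0 had an unadjusted p under 0.05.

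Sequences upstream of the starts are shown for Cybb, Gclm, Srxn1 and Nqo1, which passed the test, and for Ncf1, which shares a motif with Cybb. RefSeq (GRCm38.p6) gave promoter windows for 7 of the 9 members, all but Hmox1 and Ncf4, in 9 windows, of which the 250 bases before the start were searched on both strands. The motifs were TGACNNNGC, the antioxidant response element core; TGANTCAGC, an element of the NF-E2 type, which NRF2 with a small MAF protein also binds; the interferon-stimulated response element, which is GAAA, any 2 bases and GAAA again; and GAGGAA, a core of the myeloid factor PU.1. The 2 NRF2-type motifs can share a site. In the order given, the motifs were held by 10.2%, 1.02%, 2.97% and 23.3% of 32817 windows. Capitals mark the matches, and each sequence reads 5′ to 3′ on the strand of the gene.
Cybb, chrX:9469325-9469574, minus strand: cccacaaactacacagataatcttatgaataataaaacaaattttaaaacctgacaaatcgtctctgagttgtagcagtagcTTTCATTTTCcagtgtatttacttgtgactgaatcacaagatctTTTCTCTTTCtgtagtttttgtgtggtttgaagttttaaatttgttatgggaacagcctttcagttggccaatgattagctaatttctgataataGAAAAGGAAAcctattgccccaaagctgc
Ncf1, chr5:134229626-134229875, minus strand: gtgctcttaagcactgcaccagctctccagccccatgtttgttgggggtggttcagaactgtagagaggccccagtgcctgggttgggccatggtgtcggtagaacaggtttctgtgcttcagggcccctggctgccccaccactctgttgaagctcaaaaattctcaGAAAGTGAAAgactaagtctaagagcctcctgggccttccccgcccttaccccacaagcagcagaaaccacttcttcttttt
Gclm, chr3:122245307-122245556, plus strand: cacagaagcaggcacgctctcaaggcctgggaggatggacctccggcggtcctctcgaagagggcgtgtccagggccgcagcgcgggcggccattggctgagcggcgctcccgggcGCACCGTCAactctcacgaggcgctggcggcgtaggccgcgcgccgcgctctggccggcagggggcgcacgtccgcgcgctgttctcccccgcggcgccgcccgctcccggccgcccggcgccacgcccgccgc
Srxn1, chr2:152105274-152105523, plus strand: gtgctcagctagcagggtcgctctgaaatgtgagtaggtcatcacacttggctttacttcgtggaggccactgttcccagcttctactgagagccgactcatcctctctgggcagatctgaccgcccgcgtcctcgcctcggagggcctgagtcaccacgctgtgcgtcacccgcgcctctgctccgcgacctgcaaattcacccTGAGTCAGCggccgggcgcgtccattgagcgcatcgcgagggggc
Nqo1, chr8:107403206-107403455, minus strand: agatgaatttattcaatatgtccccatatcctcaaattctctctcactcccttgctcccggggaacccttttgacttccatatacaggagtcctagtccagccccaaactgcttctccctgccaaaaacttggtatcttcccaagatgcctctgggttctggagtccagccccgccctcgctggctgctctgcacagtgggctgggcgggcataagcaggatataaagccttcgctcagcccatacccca

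Cybb held 3 matches to the interferon-stimulated response element, which begin 168, 124 and 29 bases before the start, and Ncf1 held 1, beginning 82 bases before it. Both genes lay lower after ablation, Ncf1 without passing, and 25.6% of all genes tested also had groups apart and lower. The motifs were chosen after the sequences were seen, so these matches cannot be weighed against the shares of windows above. Whether they bear on the levels was not tested. The Cybb gene of the count files extends beyond this RefSeq start, to 9487771. Srxn1 held TGANTCAGC 45 bases before its start, and Gclm held TGACNNNGC on the other strand, 134 bases before its start. Gclm was called higher and Srxn1 lower, and whether either match is bound or acts in these cells was not tested. Of the 3 Txnrd1 windows, 1 held TGACNNNGC and another held GAGGAA, while those of Cyba and Nqo1 held no match to any of the 4 motifs.

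The catalytic core of the oxidase is NOX2, encoded by Cybb (ENSMUSG00000015340, chromosome X, 9435252 to 9487771 on the minus strand, GRCm38). Cybb had 18.22 and 19.99 CPM in Treg-ablated replicates 1 and 2, and 28.55, 28.55 and 22.92 CPM in control replicates 1, 2 and 3. Both Treg-ablated libraries lay below all controls, and control replicate 3 lay nearest to them. Its upstream window held the 3 interferon-type matches shown above. The means were 19.1 ± 1.251 and 26.67 ± 3.249 CPM, which is −0.49 on the log2 scale (± 0.1161 SE, edgeR adjusted p = 0.01305). The call ended without Treg-ablated replicate 1 (adjusted p = 0.05053) and without control replicate 2 (adjusted p = 0.07953), with log2 fold changes of −0.42 and −0.43.

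Cyba (ENSMUSG00000006519, chromosome 8, 122424772 to 122432940, minus strand) encodes the membrane partner that stabilises NOX2 and anchors the cytosolic subunits. It had 40.66 and 32.28 CPM in Treg-ablated replicates 1 and 2 and 42.32, 42.72 and 47.51 CPM in control replicates 1, 2 and 3. The groups did not overlap, but Treg-ablated replicate 1 lay close to the lowest controls. The log2 fold change of −0.27 did not pass (± 0.1034 SE, edgeR adjusted p = 0.07762). Leaving out Treg-ablated replicate 1 brought it past the threshold (−0.45, adjusted p = 0.01137), as did a filter of 1 count in any library (−0.29, adjusted p = 0.01711). It shrank to −0.11 without Treg-ablated replicate 2 (adjusted p = 0.478) and to −0.12 with a correction for GC content (adjusted p = 0.3742).

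Ncf1 and Ncf4 encode cytosolic subunits, the organiser that bridges to the membrane core and a lipid-binding partner. Ncf1 (ENSMUSG00000015950, chromosome 5, 134220053 to 134229625, minus strand) had 12.92 and 12.14 CPM after ablation and 16.12, 13.92 and 14.56 CPM in controls. Its groups did not overlap, and its log2 fold change of −0.24 did not pass (± 0.111 SE, edgeR adjusted p = 0.1353). Of its 3663 exon bases 408 overlap Gtf2ird2 on the opposite strand, and the counting set no strand option, so reads there could not be assigned by strand. Ncf4 (ENSMUSG00000071715, chromosome 15, 78244801 to 78262580) had 5.863 and 5.205 CPM after ablation and 5.71, 5.809 and 5.225 CPM in controls. Its groups overlapped, and the fitted fold of 0.9919 had an interval of 2 SE from 0.8083 to 1.217.

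**Figure D1:**
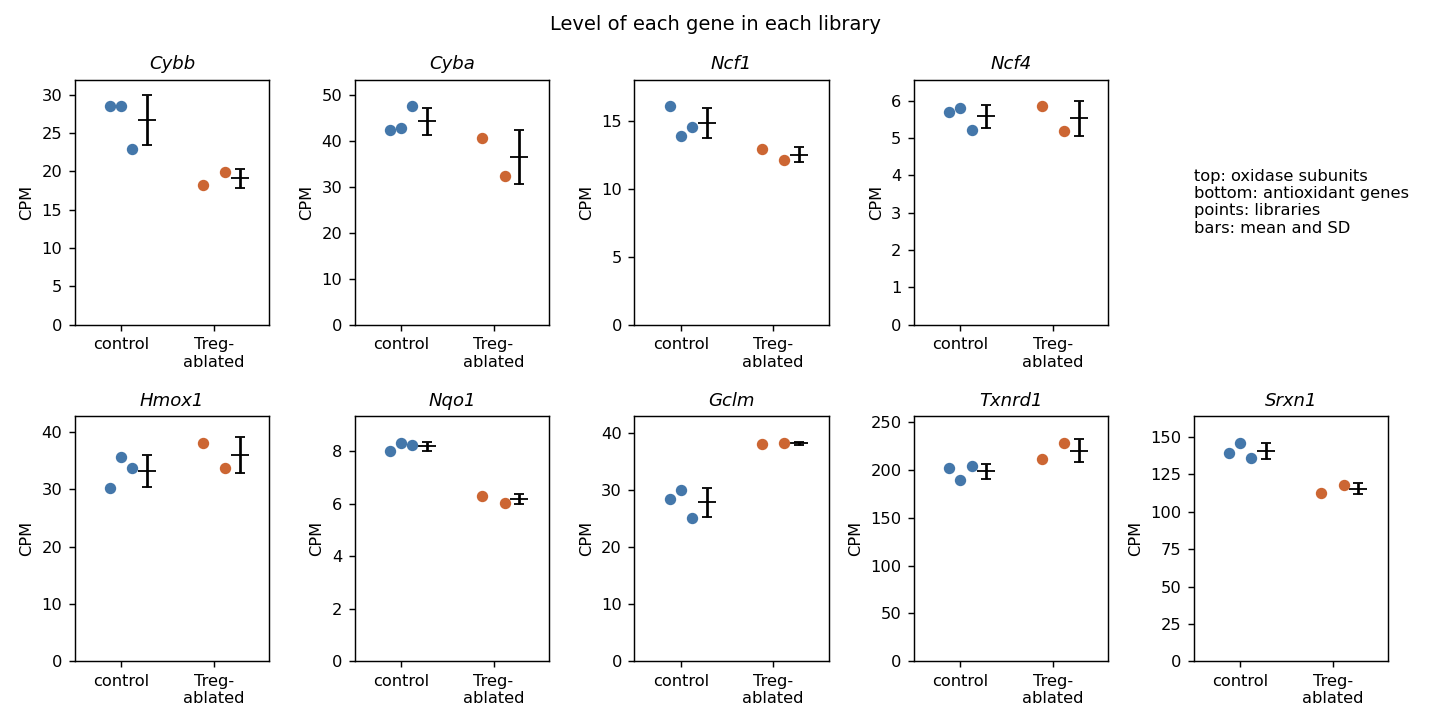
CPM of the 4 oxidase subunit genes (top) and the 5 antioxidant genes (bottom) in each control (blue) and Treg-ablated (orange) library, with the mean and SD of each group beside the points. Cybb, Nqo1 and Srxn1 lie lower and Gclm higher in both Treg-ablated libraries, while the groups of Ncf4 and Hmox1 overlap.

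The groups of 3 of the 4 oxidase genes did not overlap and lay lower after ablation, as did those of 25.6% of all genes tested. The 4 subunit genes summed to 77.67 and 69.62 CPM in Treg-ablated replicates 1 and 2 and to 92.71, 90.99 and 90.22 CPM in control replicates 1, 2 and 3. Set against the sum of the 20 macrophage markers, the oxidase sum was 20.63% and 22.37% after ablation and 15.63%, 15.4% and 15.68% in controls, higher in both Treg-ablated libraries. The marker sum itself was lower after ablation, at 311.2 to 376.5 CPM against 575.4 to 593.3 CPM in controls. Cyba made up the largest part of the oxidase sum, and which cells its RNA came from was not tested. The ratio is therefore not a level per macrophage. Cybb alone was 4.839% and 6.423% of the marker sum after ablation and 4.813%, 4.832% and 3.984% in controls, so Treg-ablated replicate 1 lay level with 2 of the controls. Against Ptprc, which encodes the pan-leukocyte antigen CD45, Cybb came to 65.09% and 60.64% after ablation and 102.7%, 121.8% and 103.8% in controls. Ptprc itself had 27.99 and 32.96 CPM after ablation and 27.81, 23.44 and 22.08 CPM in controls, so both parts of this ratio moved. The part that the numbers of macrophages and lymphocytes have in the Cybb result was not tested. Neutrophils and B cells also carry this oxidase. The neutrophil gene Ly6g had at most 0.1891 CPM in any library, and 14 neutrophil markers summed to 36.81 to 39.72 CPM after ablation and 24.8 to 32.25 CPM in controls, with 2 of 6 tested members higher and 0 lower. The 10 B cell markers summed to 25.28 to 41.94 against 5.375 to 6.619 CPM. The 2 neutrophil markers that passed as higher, beside 13.5% of all genes tested, were Mmp9 and Retnlg (edgeR adjusted p = 0.02797 and 0.02833). Most of the neutrophil sum was Mmp9, a matrix protease (25.28 and 24.89 CPM after ablation and 18.27, 21.23 and 14.77 CPM in controls). Retnlg had 7.691 and 5.733 CPM after ablation and 4.031, 4.507 and 4.877 CPM in controls. Of the tested markers that did not pass, Csf3r, the G-CSF receptor, had 1.639 and 1.358 against 2.217, 2.254 and 1.811 CPM. Mmp8 also had a negative log2 fold change, and S100a8 and Padi4 had positive ones. The part of neutrophils and B cells in the Cybb result was not tested.

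Most other genes listed with the oxidase were too low to be tested, though the list summed to 371.2 CPM or more in every library. Of 13 listed genes 5 were tested, of which 2 were higher, 0 lower and 3 did not pass. Over all genes tested 13.5% were higher and 25.8% passed in either direction, and whether this list differs was not tested. Nox3 and Duoxa2 had 0 counts in every library. Rac2, the Rac GTPase of blood cells that switches the oxidase on, had 19.04 and 19.31 CPM after ablation against 10.21, 11.67 and 10.8 CPM in controls. It rose 1.753-fold (log2 fold change 0.81 ± 0.1035 SE, edgeR adjusted p = 0.0007846), so there were 1.045 and 0.966 Rac2 counts per Cybb count after ablation and 0.3576 to 0.4711 in controls. Lymphocytes also express Rac2, and the 18 T and NK cell markers summed to 134.2 to 139.6 CPM after ablation against 47.9 to 58.69 CPM in controls. Their part in the Rac2 result was not tested. Rac1, the Rac GTPase of most cell types, rose 1.233-fold (adjusted p = 0.00709), a call that ended without control replicate 2 (adjusted p = 0.05499). Nox4, an oxidase of fibroblasts and vessels that needs no cytosolic subunit, had 5.218 ± 1.049 after ablation and 5.238 ± 0.2886 CPM in controls (adjusted p = 0.9673).

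Of the antioxidant genes, Gclm (ENSMUSG00000028124, chromosome 3, 122245557 to 122270732, plus strand) rose. Like Srxn1, it has an NRF2-type match upstream. It encodes the modifier subunit of glutamate-cysteine ligase, which catalyses the rate-limiting step of glutathione synthesis. Gclm had 37.95 and 38.24 CPM in Treg-ablated replicates 1 and 2 and 28.35, 30 and 25.01 CPM in control replicates 1, 2 and 3. All Treg-ablated values lay above all controls. The log2 fold change was 0.45 (± 0.0909 SE, edgeR adjusted p = 0.006213), and Gclm was the member whose call held in every alternative except the test against a fold of 1.5. Of its 6291 exon bases 296 overlap Gm17494 on the opposite strand, which had 32 to 61 counts per library. Gm6061, on the same strand, overlaps 244 of the Gclm exon bases and had 0 counts in every library.

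Gclc, which encodes the catalytic subunit of the same enzyme, did not pass. It had 25.85 and 25.34 CPM after ablation and 28.75, 24.94 and 25.57 CPM in controls (log2 fold change −0.04 ± 0.093 SE, edgeR adjusted p = 0.7678). Per kilobase of exon there were 0.7989 and 0.821 Gclm per Gclc after ablation and 0.5365, 0.6545 and 0.5322 in controls, and the groups did not overlap. Slc7a11, the cystine importer that feeds glutathione synthesis, had 3.909 and 4.828 CPM after ablation and 3.225, 3.205 and 2.229 CPM in controls. It did not pass (log2 fold change 0.57 ± 0.2098 SE, edgeR adjusted p = 0.06746), but passed as higher with a filter of 1 count in any library (adjusted p = 0.03159).

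Srxn1 (ENSMUSG00000032802, chromosome 2, 152105516 to 152111376, plus strand) encodes sulfiredoxin, which repairs over-oxidised peroxiredoxins. It had 112.7 and 118 CPM after ablation and 139.4, 146 and 136 CPM in controls. The groups did not overlap, and the log2 fold change was −0.29 (± 0.067 SE, edgeR adjusted p = 0.01225). The call ended without Treg-ablated replicate 1 (adjusted p = 0.06103), without control replicate 2 (adjusted p = 0.07922) and with a correction for GC content (log2 fold change −0.18, adjusted p = 0.08014). Per kilobase, Srxn1 stood 6.622 and 6.882 times above Gclm after ablation and 10.86 to 12.13 times above it in controls.

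Nqo1 (ENSMUSG00000003849, chromosome 8, 107388225 to 107403206, minus strand) encodes a quinone reductase that is a common readout of NRF2. It had 6.304 and 6.034 CPM after ablation and 7.995, 8.313 and 8.221 CPM in controls, and the groups did not overlap. The log2 fold change of −0.41 passed narrowly (± 0.1275 SE, edgeR adjusted p = 0.03954). The call ended under DESeq2 (adjusted p = 0.1696), after thinning to the smallest library (adjusted p = 0.08878) and without each of the 5 libraries in turn (adjusted p from 0.07202 to 0.1324).

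Hmox1 and Txnrd1 did not pass. Hmox1 (ENSMUSG00000005413, chromosome 8, 75093591 to 75100596, plus strand), the inducible heme oxygenase that frees iron, carbon monoxide and biliverdin from heme, had 38.14 and 33.79 CPM after ablation and 30.16, 35.71 and 33.79 CPM in controls. The groups overlapped, and the log2 fold change of 0.11 (± 0.0949 SE, edgeR adjusted p = 0.4061) corresponds to a fold of 1.082 with an interval of 2 SE from 0.9488 to 1.234. Txnrd1 (ENSMUSG00000020250, chromosome 10, 82859206 to 82897724, plus strand), the cytosolic thioredoxin reductase, had 211.3 and 228.1 CPM after ablation and 202.1, 188.9 and 203.5 CPM in controls. Its groups lay apart, with a log2 fold change of 0.15 that did not pass (± 0.0686 SE, edgeR adjusted p = 0.1359). The groups of 4 antioxidant genes thus lay apart. They were 2 higher genes, beside 26.9% of all genes tested, and 2 lower genes, beside 25.6%, or 52.5% of all genes in either direction. The 5 genes together summed to 406.3 and 424.1 CPM after ablation and 406.5 to 409 CPM in controls.

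**Figure D2:**
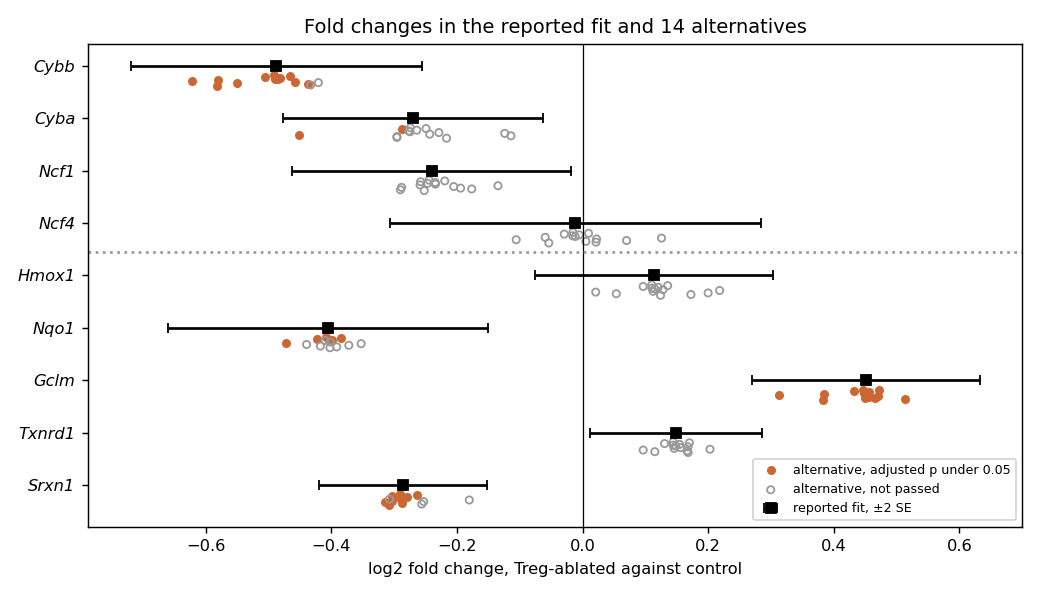
Log2 fold change (Treg-ablated against control) of the 4 oxidase genes, above the dotted line, and the 5 antioxidant genes. Black squares give the reported fit with 2 SE, and small points 14 alternatives, filled where the adjusted p was under 0.05; Gclm is filled throughout, whereas Cybb, Nqo1 and Srxn1 are a mixture.

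Levels between genes were compared per kilobase of exon. In controls Cyba had 58.29 ± 3.812 CPM per kilobase and Txnrd1 58 ± 2.353, values that do not differ beyond their spread. Srxn1 followed at 49.81 ± 1.81 and Hmox1 at 15.37 ± 1.302 CPM per kilobase. Nqo1 at 5.265 ± 0.1055, Cybb at 4.592 ± 0.5594, Gclm at 4.417 ± 0.4039 and Ncf1 at 4.059 ± 0.3092 lay close together, and only Nqo1 lay above every value of the other 3. Ncf4 was lowest of the 9, at 2.762 ± 0.1547 CPM per kilobase. After ablation Gclm, at 6.056 ± 0.0327, stood above Nqo1 at 3.973 ± 0.1229 CPM per kilobase, the reverse of the control order. Cybb reached 0.05848 and 0.08081 of the Cyba level after ablation and 0.06296 to 0.08804 in controls, and these groups overlapped.

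**Figure D3:**
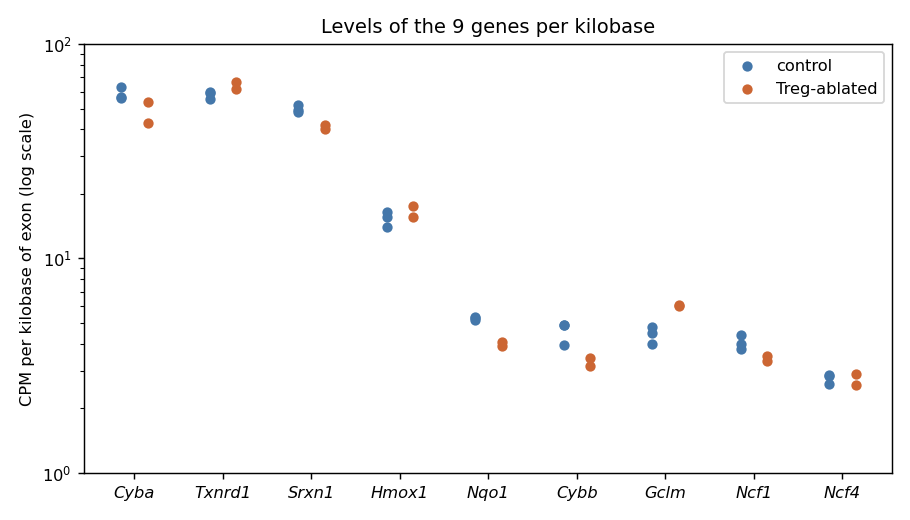
CPM per kilobase of exon (log axis) of the 9 genes in control (blue) and Treg-ablated (orange) libraries, ordered by the control mean. Cyba, Txnrd1 and Srxn1 lie well above the others, and Gclm moves from below to above Nqo1.

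Among the regulators of the antioxidant genes, Nfe2l2 and Mafg rose. Of 10 NRF2 control genes 2 were higher, 0 lower and 8 did not pass. Over all genes tested 13.5% were higher and 25.8% passed in either direction, and whether this list differs was not tested. The number higher was 4 under the GC correction and 1 without replicate 2 or 3 of the controls. Nfe2l2 itself had 234.5 and 241.9 CPM after ablation and 180.1, 183.9 and 179.8 CPM in controls, and rose 1.314-fold (log2 fold change 0.39 ± 0.0615 SE, edgeR adjusted p = 0.001997). Mafg, a small MAF partner of NRF2, rose 1.192-fold (adjusted p = 0.02019), which did not hold when replicate 2 of either group or replicate 3 of the controls was left out (adjusted p from 0.05741 to 0.07488). Keap1 had 61.51 ± 2.71 after ablation and 70.49 ± 1.901 CPM in controls, and Bach1 51.77 ± 4.655 against 49.75 ± 2.041 CPM. Neither passed (adjusted p = 0.06162 and 0.6502).

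More of the other NRF2 targets were lower than higher. Of 37 listed genes 35 were tested, 2 were higher, 12 lower and 21 did not pass, with a median log2 fold change of −0.20; 12.3% of all genes tested were lower. The 2 that rose were Ugdh, which makes the sugar donor for glucuronidation (1.35-fold, adjusted p = 0.001484), and Txn1, the thioredoxin that TXNRD1 reduces (1.256-fold, adjusted p = 0.01731). The Txn1 call was lost when replicate 1 of either group or replicate 2 of the controls was left out (adjusted p from 0.05195 to 0.1171). Trib3, a stress-induced pseudokinase, fell 1.709-fold (adjusted p = 0.001081) and Ephx1, the microsomal epoxide hydrolase, 1.563-fold (adjusted p = 0.001083). G6pdx, the entry enzyme of the pentose phosphate pathway and a main source of NADPH, had 78.55 and 80.94 CPM after ablation and 101.4, 101.8 and 109.3 CPM in controls and fell 1.306-fold (adjusted p = 0.003594). Pgd and Tkt of the same pathway, named after their values were seen, also fell, with log2 fold changes of −0.35 and −0.25 (adjusted p = 0.005876 and 0.02192), whereas Taldo1 at −0.22 did not pass. The number lower was 6 without control replicate 2 or with the GC correction.

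Of 23 other genes of antioxidant defence 2 were higher, 4 lower and 17 did not pass, a share called near the 25.8% of all genes tested. Cat, which encodes catalase, rose 1.239-fold (adjusted p = 0.01558) and Gpx8, a peroxidase of the endoplasmic reticulum, 1.214-fold (adjusted p = 0.01569). Sesn2, a stress-induced regulator, fell 1.462-fold (adjusted p = 0.00127), Gpx3, the secreted glutathione peroxidase, 1.723-fold (adjusted p = 0.009276) and Msrb1, a methionine sulfoxide reductase, 1.306-fold (adjusted p = 0.02075). Sod2, the mitochondrial superoxide dismutase, had 107.5 ± 5.485 after ablation against 94.73 ± 4.576 CPM (log2 fold change 0.18, adjusted p = 0.08246). Gpx1, the main cytosolic glutathione peroxidase, had 220.6 ± 32.02 against 249 ± 15.28 CPM (adjusted p = 0.1898). Without Treg-ablated replicate 2, 1 was higher and 2 lower, as with the GC correction. Without control replicate 2, 0 were higher and 1 lower, so the calls for Cat, Gpx8, Gpx3 and Msrb1 ended there.

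Of 14 tested genes of heme and iron handling, the pathway around Hmox1, 4 were lower, 0 higher and 10 did not pass. Over all genes tested 12.3% were lower and 25.8% passed in either direction, and whether this list differs was not tested. Hmox2, the constitutive heme oxygenase, had 55.54 and 49.94 CPM after ablation and 64.76, 65.9 and 66.39 CPM in controls and fell 1.244-fold (adjusted p = 0.01214). Alas1, the entry enzyme of heme synthesis, fell 1.237-fold (adjusted p = 0.01377), and Slc11a1, a metal transporter of phagosomes, 1.765-fold (adjusted p = 0.007814). The number lower was 2 with the GC correction. It was 1 when either Treg-ablated replicate 2 or control replicate 2 was left out. The log2 fold change of Alas1, −0.31 in the reported fit, was then −0.29 for either library (adjusted p = 0.05218 and 0.08144), and that of Hmox2, −0.32 in the reported fit, was −0.24 and −0.31 (adjusted p = 0.07979 and 0.06808).

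**Figure D4:**
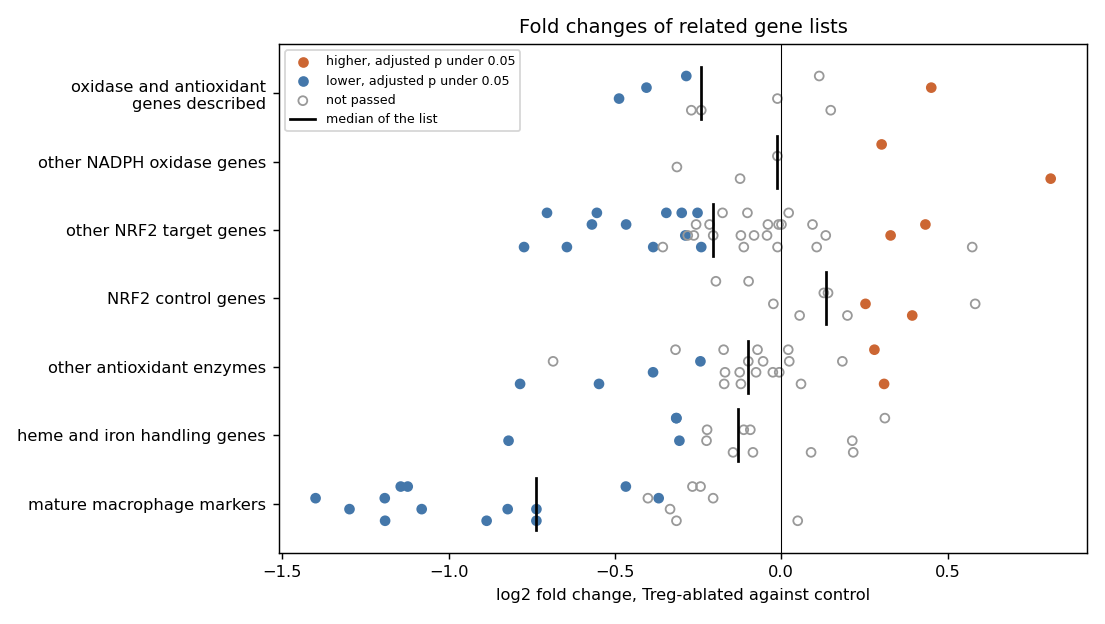
Log2 fold changes (Treg-ablated against control) of the 9 genes, 5 lists of related genes and the mature macrophage markers, each point a gene that passed the low-count filter and each black line the median of its list. The medians of the related lists lie between −0.20 and 0.13, whereas that of the macrophage markers lies at −0.74.

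Likeness to Cybb and to Hmox1 was taken as the root mean square difference of centred log2 CPM over the 5 libraries, among 9221 genes. The genes most like Cybb were Tenm4 (0.0217), C2cd2l (0.0316) and Zfat (0.0322). Tenm4, the closest, had 313.1 and 352.8 CPM after ablation and 500.3, 486 and 389.7 CPM in controls, with the same low control replicate 3. Of the other oxidase subunits Ncf1 stood at 0.179 (rank 1489), Cyba at 0.246 (rank 3773) and Ncf4 at 0.253 (rank 4032), while Srxn1 and Nqo1 were closer at 0.132 (rank 506) and 0.14 (rank 658). The genes most like Hmox1 were Stk19 (0.00938), Mrpl32 (0.0248) and H2-T23 (0.0304), none of which passed as changed. Over so few libraries many genes share a profile.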

How the data were processed

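The authors' counts come from featureCounts 1.6.2, per the file headers: fragments over exons were summed per gene with a filtered Ensembl 83 annotation (GRCm38), without a strand option or one for multi-mapping reads. The deposited values are raw whole-number counts. Exon lengths are those of the same files. Subread 1.6.2, Trimmomatic 0.33, FastQC 0.11.5 and DESeq2 1.16.1 also stand in the submitters' processing notes. The library kit was stranded, per the labels. Sample titles gave the groups and replicate numbers.

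Symbols were found for 46488 of 46983 genes. After filterByExpr, 14580 genes were scaled by TMM and fitted in edgeR 4.0.16 (R 4.3.3) with its quasi-likelihood test, ablated against control, adjusted by Benjamini-Hochberg over all of them at a threshold of 0.05. The SE was derived from the fold change and the F statistic. CPM are per 1000000 of the TMM-scaled library. The test was checked on simulated counts with planted folds of 1.5 and more. The fitted changes of the members were all smaller, so the check does not cover calls of their size. Alternatives were library size alone, RLE factors, 2 other filters, DESeq2 1.42.0, limma-voom (limma 3.58.1), a test against a fold of 1.5, a replicate block, a GC offset from GENCODE M21 transcripts, thinning, and leaving out each library. Without a Treg-ablated library 1 is left, assumed to vary like the controls. Libraries of a group differed beyond sampling noise (chi-square per degree of freedom 3.884 to 7.241), so none was a repeat read of the same library. The comparison cannot tell separate animals from separate preparations of the same RNA. A count of 3 equals 0.1502 to 0.2263 CPM, a floor for counting error only.

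The members and lists were chosen with earlier results of these data known. Named genes are the 9 members, a set of 11 related genes, up to 3 higher and 3 lower per related list by smallest p, and the 3 genes most like Cybb and Hmox1 with a mean log2 CPM of at least 3 (prior count 2). A gene covered by this rule is not reported here. The PU.1, interferon, NF-E2 and NRF2 motifs were chosen after the promoter sequences were seen.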

Additional observations from a re-analysis of the deposited data

How the results depend on the processing

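Of 15 alternatives, the fold test, the replicate block and the fit without control replicate 2 moved the numbers of calls most. Genes higher and lower numbered 1971 and 1787 in the reported fit. They numbered 98 and 23 against a fold of 1.5 and 1296 and 1116 with the replicate block, and without 1 library each the ranges were 812 to 1687 higher and 554 to 1538 lower, lowest without control replicate 2. DESeq2 called 1370 and 1349.

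Oxidase genes called numbered 2 with the filter of 1 count in any library, 0 against a fold of 1.5, and 0 to 1 without 1 library each. Antioxidant genes called numbered 0 against a fold of 1.5, 1 with the replicate block, and 1 to 2 without 1 library each. Against a fold of 1.5 the log2 fold changes of Cybb, Nqo1, Gclm and Srxn1 stayed at −0.49, −0.41, 0.45 and −0.29 without passing. Nqo1 did not pass under DESeq2 (−0.41), with the replicate block (−0.40) or after thinning (−0.35). Srxn1 did not pass with the replicate block (−0.31) or the GC offset (−0.18). Cyba passed as lower with the filter of 1 count in any library (−0.29). Without 1 library each, log2 fold changes ran from −0.58 to −0.42 for Cybb, −0.45 to −0.11 for Cyba, −0.44 to −0.37 for Nqo1, −0.32 to −0.25 for Srxn1 and −0.11 to 0.070 for Ncf4.

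Ncf4, near 0 throughout, changed sign with library size alone (0.0094), the GC offset (0.13) and thinning (0.022). Nox4 did so with library size alone (0.0097), the replicate block (0.0093) and thinning (0.058), and ran from −0.22 to 0.19 without 1 library each. Bach1 did so with the GC offset (−0.013) and ran from −0.034 to 0.15, and Gclc from −0.086 to 0.024. None of these passed anywhere. Apart from the fold test and the alternatives already named, the causes of these shifts were not tested.

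Whether the replicate numbers of the titles mark a shared animal or batch is not given, so the block result is given here alone. Across genes, deviations of same-numbered libraries correlated at −0.226 for number 1 and −0.0213 for number 2. With 2 Treg-ablated libraries the deviations of that group are mirror images, so such correlations cannot decide the question. In their deposited names the Treg-ablated libraries carry the numbers 2 and 3 where the titles have 1 and 2. By those numbers the correlations were 0.0213 for number 2 and −0.199 for number 3, and no block by them was fitted. For Ncf4 the interval of 2 SE around the fold ran from 0.8083 to 1.217, so a change within that interval remains possible. The smallest change that these libraries could detect was not determined.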
